A study of Mus musculus with 3 samples.

Results

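The insulin-like growth factor (IGF) system of the embryonic mouse trunk is described here from 9 genes: the ligands Igf1 and Igf2, the receptors Igf1r and Igf2r, and the secreted binding proteins Igfbp2, Igfbp3, Igfbp4, Igfbp5 and Igfbp7. They were taken by gene symbol from the 33696 genes listed in each count matrix, and all 9 were found. Single cells came from mouse trunks at 3 stages named by embryonic day (E11.5, E12.5 and then E13.5), with limbs and thoracic organs removed and the neural tube kept, in a study of markers of brown adipose tissue depots. Each stage was 1 library made from 3 pooled littermates, and the labels name no strain, mutation or treatment. Cells were freed with TrypLE and counted at transcript 3′ ends on the 10x Chromium platform. After filtering, 6149 (E11.5), 6015 (E12.5) and 6943 (E13.5) cells were kept, with medians of 12364, 10953 and 10179 UMIs (unique molecular identifiers, each standing for 1 captured transcript).

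IGF1 and IGF2 are small secreted hormones that act mainly through the type 1 IGF receptor, a tyrosine kinase encoded by Igf1r, and promote growth of the embryo. IGF2R binds IGF2 at the cell surface and carries it to lysosomes, so it removes ligand. The binding proteins hold IGFs in the fluid around cells, can block or prolong their action, and are cut by secreted proteases that release the ligand. Igf2 is expressed from the paternal allele and Igf2r from the maternal allele in most mouse tissues. Mesenchyme is the loose tissue from which cartilage, tendon, dermis, fascia and fat arise, and IGF signals are known to support growth and fat cell formation there.

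Cells were sorted into classes by the UMIs of marker genes, which include none of the 9 genes, and "-like" in a class name means that a cell carried those markers. Levels are UMI counts scaled to a library of 1e6 UMIs (CPM), summed over the cells of a class. With 1 library a stage there is no replicate, so no test was possible and no p-value is given. Brackets hold exact 95% intervals that cover counting error only, and "higher" or "lower" says how these libraries differed. Stage, litter and library cannot be told apart. The libraries also differed in sex: in stage order, 65.4%, 26.8% and 95.3% of cells had a UMI of Xist, the RNA of the inactive X chromosome, and 29.8%, 60.5% and 2.49% had a Y-linked UMI. Pairs of libraries shared 10 to 16 cell barcodes, and haemoglobin UMIs in other cells put free RNA at 2.17%, 1.79% and 2.28% of a cell's UMIs.

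The class names have limits. General mesenchymal cells carried UMIs of at least 3 of 7 broad mesenchymal markers and fell in no narrower class named at their stage. They are thus a range rather than a type. At E13.5, 0 of these 7 markers was 2-fold over the rest of the library. Of the 209 brown adipose precursor-like cells at E13.5, 48.3% lay within 1 marker UMI of the limit of the class. So did 35.1% of the 57 such cells at E12.5 and 37.1% of the 364 fascia-like cells at E13.5. The share was 43.6% for the 101 tendon-like cells at E12.5 and 40.6% for the 101 myogenic progenitor-like cells at E11.5. Dermal-like and brown adipose precursor-like cells were not named at E11.5.

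The 60 bases before the transcription start are printed for 6 of the genes to show how their starts differ. They come from RefSeq on GRCm38.p6, an older build than that of the counts, and all 9 genes matched by symbol. Capitals mark GGGCGG, a GC box, and TATAAA or TATATA, forms of the TATA box, each searched on both strands.
Igf1, chr10:87861051-87861110, plus strand: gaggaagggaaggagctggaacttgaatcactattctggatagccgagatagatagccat
Igf1r, chr7:67952197-67952256, plus strand: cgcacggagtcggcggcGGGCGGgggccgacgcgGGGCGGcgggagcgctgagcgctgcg
Igf2r, chr17:12769707-12769766, minus strand: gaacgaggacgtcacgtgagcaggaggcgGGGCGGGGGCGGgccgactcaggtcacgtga
Igfbp3, chr11:7213924-7213983, minus strand: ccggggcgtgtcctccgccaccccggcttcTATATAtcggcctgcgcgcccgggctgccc
Igfbp4, chr11:99041184-99041243, plus strand: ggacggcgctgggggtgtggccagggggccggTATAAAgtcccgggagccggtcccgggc
Igfbp7, chr5:77408046-77408105, minus strand: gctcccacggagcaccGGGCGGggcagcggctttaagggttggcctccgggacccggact
Both receptor genes held GGGCGG 2 times in this window, which 18.6% of 32851 promoter windows of this length held at least once. G and C made up 86.7% of the Igf1r window and 71.7% of the Igf2r window, against a median of 55.0% over all. Igfbp4 held TATAAA, found in 3.92% of all windows, and Igfbp3 held TATATA, found in 1.56%. The Igf1 window held none of the 3 motifs and was 46.7% G and C. A match is a string of letters and says nothing of binding.

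Over all mesenchymal cells both ligands were higher at E12.5 and E13.5 than at E11.5. The cells numbered 2386, 3029 and 4619 in stage order, and a lower share of cells and less RNA per cell cannot be told apart in the sums. Igf1 stood at 137 CPM [133 to 141] in the E11.5 library, 293 CPM [287 to 298] in the E12.5 library and 499 CPM [493 to 506] in the E13.5 library. The intervals were apart, with log2 ratios of 1.10 for E12.5 over E11.5 and 0.77 for E13.5 over E12.5. When each cell was thinned to 4000 UMIs, 29.8%, 42.5% and 54.5% of mesenchymal cells had an Igf1 UMI in stage order, and the shares without thinning were 52.3%, 58.3% and 66.1%. Erythroid-like cells, which should lack Igf1, had thinned shares of 0%, 0% and 5.74%. The median depth was 24512, 18627 and 12407.5 UMIs in erythroid-like cells and 13632.5, 11666.5 and 9509 in general mesenchymal cells.

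Igf2 stood at 19.4 CPM [17.9 to 20.9] in the E11.5 library, 44.5 CPM [42.4 to 46.6] in the E12.5 library and 43.3 CPM [41.5 to 45.2] in the E13.5 library. Its log2 ratio was 1.20 [1.07 to 1.33] for E12.5 over E11.5 and -0.04 [-0.13 to 0.05] for E13.5 over E12.5, so the later pair was level within counting error. The thinned share of cells with an Igf2 UMI was 7.42%, 16.6% and 16.8%, and 22.5%, 40.3% and 34.3% without thinning, against thinned shares of 0%, 1.08% and 1.64% in erythroid-like cells. The Igf2 counts are uncertain, because the matrices also list Gm49394, a gene model that overlaps Igf2 on the same strand, and Cell Ranger leaves out reads that fit 2 genes. Gm49394 had 0 UMIs in mesenchymal cells at each stage, and whether the overlap lowered the Igf2 counts was not tested.

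The receptors went in opposite directions. Igf1r stood at 105 CPM [102 to 109] in the E11.5 library, 107 CPM [104 to 110.1] in the E12.5 library and 82.1 CPM [79.6 to 84.6] in the E13.5 library, with a log2 ratio of -0.36 [-0.42 to -0.29] for E13.5 over E11.5. Igf2r stood at 66.5 CPM [63.8 to 69.3] in the E11.5 library, 110.1 CPM [107 to 113] in the E12.5 library and 145 CPM [141 to 148] in the E13.5 library, with 1.12 [1.05 to 1.19]. The signalling receptor was thus lowest at E13.5, and the receptor that clears IGF2 was highest there. Airn, an RNA transcribed antisense to Igf2r, overlaps it, and reads of the pair can be told apart only by strand.

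Among the 5 binding proteins of the 9 genes, Igfbp7 and Igfbp3 had the largest ratios. Igfbp3, a carrier of both ligands, stood at 36 CPM [34 to 38.1] in the E11.5 library, 196 CPM [191 to 200.3] in the E12.5 library and 176 CPM [173 to 180.1] in the E13.5 library. Its log2 ratio was 2.44 [2.36 to 2.53] for E12.5 over E11.5 and -0.15 [-0.19 to -0.11] for E13.5 over E12.5, so the difference lay between the first 2 libraries. Igfbp7, which binds IGFs only weakly and is best known from vessels, had 33, 317 and 632 UMIs, or 0.971 CPM (E11.5), 8.11 CPM (E12.5) and 12.6 CPM (E13.5). It was seen in few mesenchymal cells: 0.545%, 2.28% and 4.18% after thinning and 1.05%, 6.07% and 9.18% before, against 0%, 0% and 0.820% of thinned erythroid-like cells. With more marker UMIs required of each class, its log2 ratio was 1.85 in place of 3.06 for E12.5 over E11.5, and 2.53 in place of 3.70 for E13.5 over E11.5.

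Igfbp5, a binding protein that attaches to extracellular matrix, was highest in the middle library, at 540.5 CPM [533 to 548] in the E11.5 library, 1084 CPM [1074 to 1094] in the E12.5 library and 702 CPM [695 to 709] in the E13.5 library. Its log2 ratio for E13.5 over E11.5 was 0.38 over all mesenchymal cells. It was 1.59 when the mesenchymal classes with at least 50 cells at both stages had the same weight. Of these, general mesenchymal cells had 623 CPM (E11.5) and 611 CPM (E13.5), chondrogenic-like cells 382 and 1993, and meningeal-like cells 462 and 2441. Igfbp2 stood at 257 CPM (E11.5), 326 CPM (E12.5) and 272 CPM (E13.5). Its log2 ratio for E13.5 over E11.5, 0.08, had no stable sign. It was -0.34 in cells with at most 5% mitochondrial UMIs and 1.06 with the same classes weighted alike. Igfbp4 stood at 443 CPM (E11.5), 542 CPM (E12.5) and 503 CPM (E13.5).

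**Figure D1:**
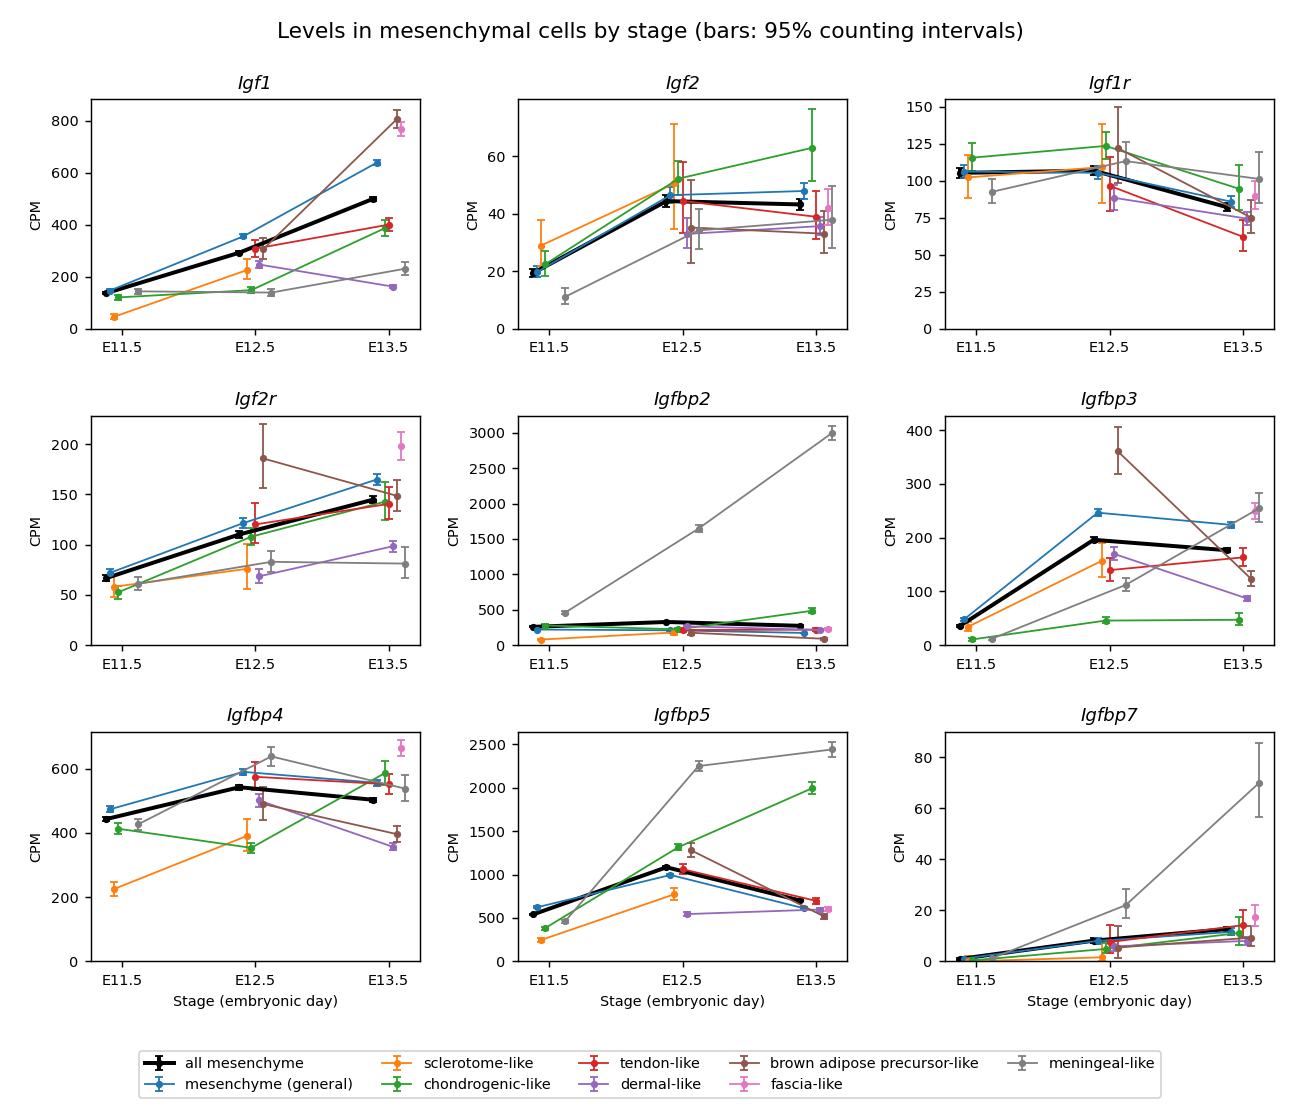
CPM of each of the 9 genes by stage, for all mesenchyme in black and for mesenchymal classes with at least 50 cells in colour; bars are 95% counting intervals. Igf1 is in stage order in all mesenchyme (137, 293 and 499 CPM), and Igfbp2 and Igfbp7 stand highest in meningeal-like cells at E13.5.

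Set against all genes with at least 50 UMIs over both libraries, 5 of 9 genes were at least 2-fold higher at E12.5 than at E11.5 (Igf1, Igf2, Igfbp3, Igfbp5 and Igfbp7), where 9.92% of 14110 genes were. Of the 9, 0 was 2-fold lower, where 1.74% of all genes were. The median log2 ratio was 1.0 over the 9 genes and 0.12 over all genes. Igfbp5 lay at the limit, with 1.0 [0.98 to 1.03]. At E13.5 over E12.5, 0 of 9 was 2-fold higher and 0 lower, against 3.18% and 3.64% of 14600 genes. At E13.5 over E11.5, 5 were higher (Igf1, Igf2, Igf2r, Igfbp3 and Igfbp7) and 0 lower, against 13.1% and 5.58% of 14308 genes. The comparisons share libraries.

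**Figure D2:**
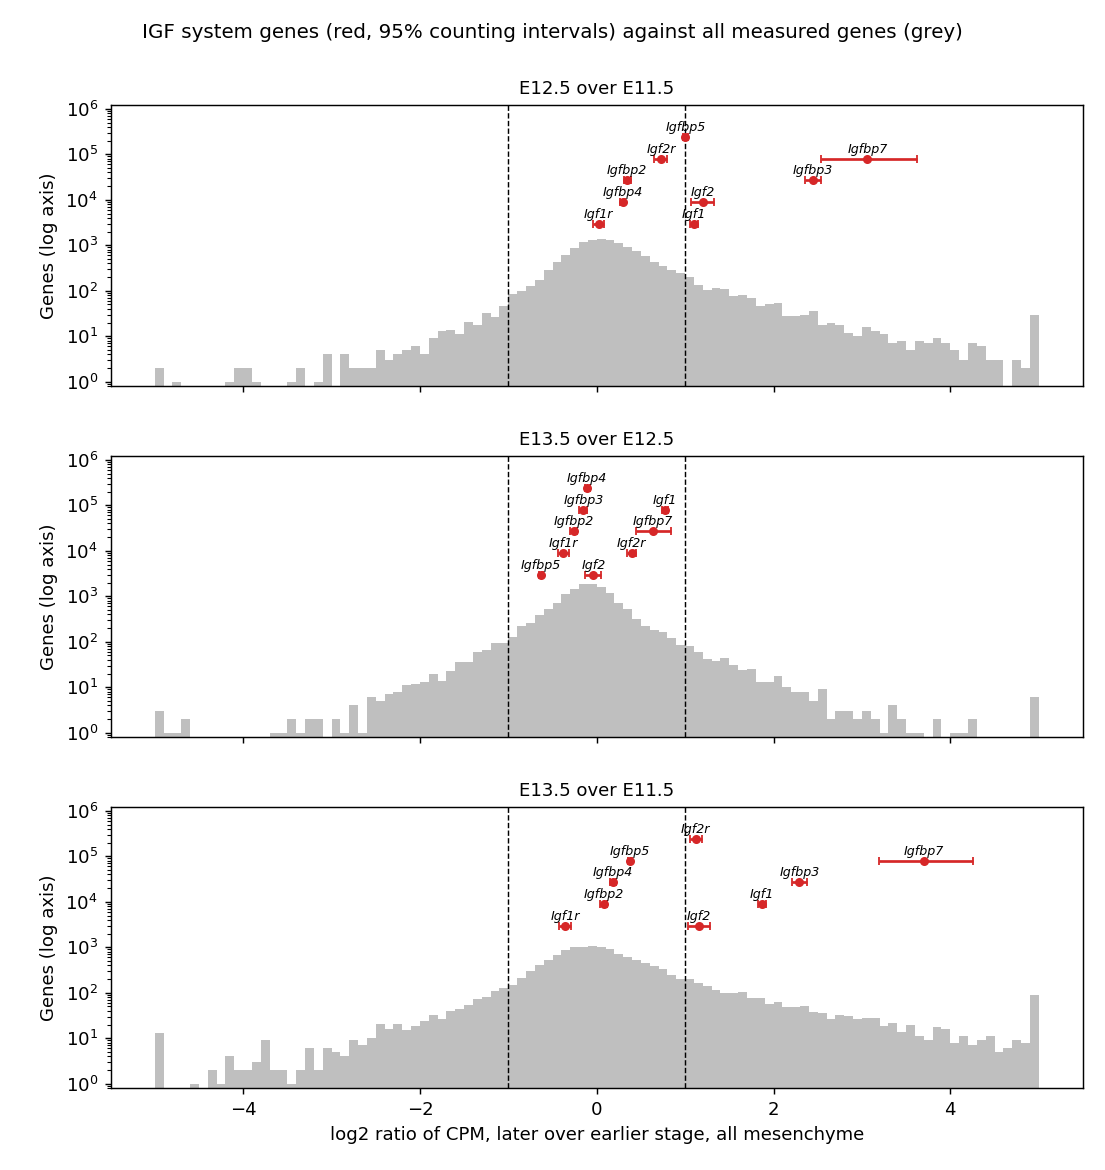
Histograms (log count axis) of the log2 ratio of CPM, later over earlier stage, in all mesenchyme for every gene measured, with values beyond 5 in size drawn in the end bins. Red points are the 9 genes, at arbitrary heights, and dashed lines mark 2-fold; at E12.5 over E11.5 Igfbp3 (2.44) and Igfbp7 (3.06) lie far to the right, and at E13.5 over E12.5 all 9 lie between the lines.

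Across cell classes, Igf1 was highest in connective tissue classes. At E11.5 general mesenchymal cells had 147 CPM [142 to 152] and meningeal-like cells 144 CPM, with overlapping intervals. At E12.5 general mesenchymal cells had 356 CPM, tendon-like cells 308 and brown adipose precursor-like cells 306, the last 2 not apart. At E13.5 brown adipose precursor-like cells had 806 CPM [771 to 842] and fascia-like cells 769.7 CPM [743 to 797]. These 2 intervals met, and both lay above the 639 CPM of general mesenchymal cells. After thinning, 79.4% of brown adipose precursor-like and 79.1% of fascia-like cells had an Igf1 UMI at E13.5 (90.9% and 87.9% before thinning). The median was 3 UMIs of 4000 in each of these classes and 0 in dermal-like cells.

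Dermal-like cells differed from the other mesenchymal classes in the direction of Igf1. They had 162 CPM at E13.5 and 247 at E12.5, a log2 ratio of -0.61 [-0.71 to -0.50]. Of the 5 dermal markers, 4 were 2-fold over the rest of the library at E13.5 and 3 at E12.5. The part of this difference in the Igf1 ratio was not tested. In brown adipose precursor-like cells the ratio was 1.40 [1.20 to 1.60], and in chondrogenic-like cells, the cartilage-forming class, 1.38 [1.23 to 1.53]. Outside mesenchyme, macrophage-like cells had 186 CPM (E13.5) and 169 CPM (E12.5), and endothelium-like cells had 172 CPM at E13.5 and 62.1 at E11.5. Spinal neuron-like cells stood at 2.92 CPM (E11.5), 11.9 CPM (E12.5) and 11 CPM (E13.5).

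In brown adipose precursor-like cells, Igfbp3, Igfbp5 and Igfbp2 were lower at E13.5 than at E12.5. Igfbp3 stood at 123 CPM at E13.5 and 361 at E12.5, a log2 ratio of -1.55 [-1.79 to -1.31]. Igfbp5 stood at 518 and 1283 CPM at these stages (-1.31 [-1.43 to -1.18]), and Igfbp2 at 88.4 and 174 CPM (-0.97 [-1.29 to -0.65]). The log2 ratio of Igfbp4 was -0.31 [-0.48 to -0.13], and that of Igfbp7, with 23 UMIs at E13.5 and 4 at E12.5, was 0.78 [-0.77 to 2.77], an interval that includes no difference. Igf1r stood at 75.1 CPM (E13.5) and 122 CPM (E12.5), and Igf2 at 33.1 and 35.3 CPM. Of the 6 markers of the class, 6 were 2-fold over the rest of the library at E13.5 and 4 at E12.5. What this difference adds to these values was not tested. With more marker UMIs required, 1 (E12.5) and 23 (E13.5) brown adipose precursor-like cells were left. With classes named from cell clusters, 0 were left at both stages. Igfbp5 was also lower at E13.5 in general mesenchymal (611 and 995 CPM) and tendon-like cells (697 and 1062). It was higher in dermal-like, chondrogenic-like and meningeal-like cells. Igfbp3 was also lower in dermal-like cells (86.6 and 170 CPM) and higher in meningeal-like cells (254 and 112).

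Igf2 was spread over mesenchymal, muscle and endothelium-like cells and, at E11.5, epidermis-like cells. At E11.5 myocyte-like cells had 31.5 CPM [23.7 to 40.9], and the intervals of the next 4 classes each met that of the class above. Epidermis-like cells had 13.6 CPM [8.05 to 21.5] there, meningeal-like cells 11.1 CPM [8.47 to 14.3] and endothelium-like cells 9.93 CPM [5.13 to 17.4], with intervals that met. At E13.5 chondrogenic-like cells had 63 CPM [51.4 to 76.5], above general mesenchymal cells at 48 CPM [45.3 to 50.8]. Endothelium-like cells had 34.9 CPM [26.6 to 44.9] there, myocyte-like cells 18.4 CPM and myogenic progenitor-like cells 17.4. Spinal neuron-like cells stood at 0.162 CPM (E11.5), 0.429 CPM (E12.5) and 2.53 CPM (E13.5), from 2, 5 and 6 UMIs. The free RNA estimates were 0.219, 0.381 and 0.811 CPM in stage order. At E11.5 and E12.5 the counting intervals included them, so these values are not read as expression.

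With erythroid-like cells left out, Igf1r was the most even of the 9 genes over classes. The highest class stood at 2.02, 7.39 and 5.24 times the lowest in stage order. The same ratios were 64.8, 78.0 and 73.6 for Igf1 and 47.3, 431 and 548 for Igfbp2. For Igf1r the lowest class was endothelium-like at E11.5 and macrophage-like at the later stages. The 45 macrophage-like cells at E11.5 were too few to be ranked, so these ratios are not compared between stages. Myogenic progenitor-like cells, the precursors of muscle, were highest at E11.5 with 171 CPM [153 to 191], above spinal neuron-like cells at 129.7 CPM. With more marker UMIs required, 21 of these myogenic progenitor-like cells were left, too few to be ranked. They had 190 CPM, where spinal neuron-like cells had 128 CPM. At E13.5 spinal neuron-like cells had 146 CPM and myogenic progenitor-like cells 131, with intervals that met. Macrophage-like cells had 27.8 CPM at E13.5.

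Igf2r was low in spinal neuron-like and macrophage-like cells. At E13.5 fascia-like cells had 198 CPM [185 to 212], above general mesenchymal cells at 165 CPM and brown adipose precursor-like cells at 149, whose intervals met. Spinal neuron-like cells had 15.2 CPM and macrophage-like cells 11.6 at that stage.

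**Figure D3:**
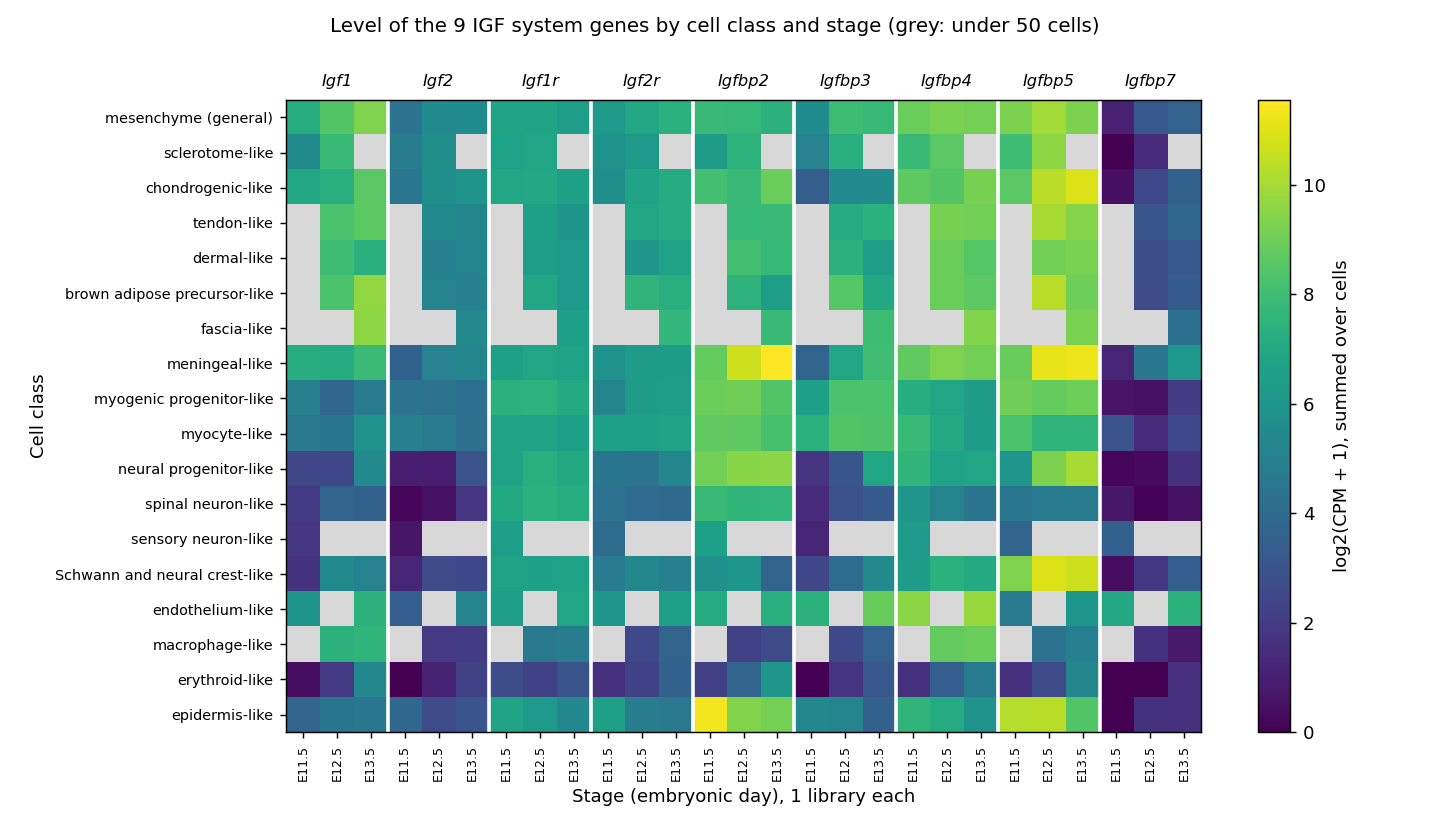
Heat map of log2(CPM + 1) for the 9 genes at each stage (columns) in cell classes (rows); grey marks classes under 50 cells. Outside erythroid-like cells Igf1r is the most even across rows, and Igfbp7 is high in endothelium-like cells (169 CPM at E13.5) and low in most others.

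Meningeal-like cells, which carried genes of the membranes around the spinal cord, had the highest Igfbp2 and Igfbp5 levels at E13.5. Igfbp2 stood at 458 CPM (E11.5), 1646 CPM (E12.5) and 2997 CPM [2905 to 3091] (E13.5). Igfbp5 stood at 462 CPM (E11.5), 2249.6 CPM (E12.5) and 2441 CPM (E13.5), Igfbp3 at 12, 112 and 254 CPM, and Igfbp7 at 1.30, 22 and 69.9 CPM. Of 9 genes, 5 were 2-fold higher at E13.5 than at E11.5 (these 4 and Igf2), where 7.84% of 9253 genes were. Igf1r was level within counting error, at 0.13 [-0.16 to 0.41]. The Igfbp2 UMIs were spread unevenly over these 108 cells: the lower quartile was 3, the median 9 and the highest cell 72 UMIs of 4000. In cells with at most 5% mitochondrial UMIs only 22 meningeal-like cells were left at E13.5, too few to be ranked, with 1603 CPM of Igfbp2 and 689 CPM of Igfbp5, where chondrogenic-like cells had 1553 CPM of Igfbp5.

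Fascia-like cells at E13.5 held Igfbp2 in a minority of cells, as did general mesenchymal cells. Fascia-like cells had 229.6 CPM with a UMI in 18.1% of thinned cells, and general mesenchymal cells had 171 CPM with 31.0%. The unthinned shares were 29.9% and 46.1%, and the thinned share in erythroid-like cells was 7.38%.

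Chondrogenic-like cells had Igfbp5 in stage order, at 382 CPM (E11.5), 1316 CPM (E12.5) and 1993 CPM (E13.5). Their log2 ratio for E13.5 over E12.5 was 0.60 [0.54 to 0.66], while that of all mesenchyme was -0.63 [-0.65 to -0.61]. Of the 8 genes with at least 50 UMIs, 5 were 2-fold higher at E13.5 than at E11.5 (Igf1, Igf2, Igf2r, Igfbp3 and Igfbp5), where 7.11% of 9068 genes were. Igfbp3, at 46.9 CPM at E13.5, was nonetheless lower than in the other 6 mesenchymal classes with at least 50 cells there. These had 86.6 to 254 CPM. Of the 10 chondrogenic markers, 6 were 2-fold over the rest of the library at E11.5 and 10 at E12.5 and E13.5. The part of this difference in the ratios over E11.5 was not tested.

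Neural progenitor-like cells, the dividing cells of the neural tube, had Igfbp2 at 546 CPM (E11.5), 713 CPM (E12.5) and 735 CPM (E13.5). Their Igfbp5 stood at 64.5 CPM (E11.5), 609.8 CPM (E12.5) and 1039 CPM [947 to 1138] (E13.5), from 1127, 469 and 62 cells. Of 7 measured genes, 3 were 2-fold higher at E13.5 than at E11.5 (Igf1, Igfbp3 and Igfbp5), where 14.8% of 10437 genes were. Of these 3, only Igfbp5 had a thinned share of cells far above that of erythroid-like cells. For Igf1 the thinned share at E13.5 was 4.84% in neural progenitor-like and 5.74% in erythroid-like cells, and 9.68% and 9.02% before thinning. The thinned Igf1 share was thus not above that of cells that should lack the gene and is not read as expression, while its 20 UMIs gave 44.7 CPM [27.3 to 69] where the free RNA estimate was 2.63 CPM. For Igfbp3 the thinned shares were 4.84% in neural progenitor-like and 2.46% in erythroid-like cells, and 8.06% and 5.74% before thinning. For Igfbp5 the thinned share was 62.9% in neural progenitor-like and 5.74% in erythroid-like cells (in neural progenitor-like cells 71.0% before thinning, at median depths of 6773.5 and 12407.5 UMIs). Spinal neuron-like cells had Igfbp5 at 22 CPM (E11.5), 26.5 CPM (E12.5) and 27.4 CPM (E13.5).

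Schwann and neural crest-like cells, the glia of nerves and their precursors, had Igfbp5 at 639.9 CPM (E11.5), 1992 CPM (E12.5) and 1616 CPM (E13.5). Their Igfbp2 was 12 CPM at E13.5 and 54.3 at E11.5.

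Among classes with at least 50 cells, endothelium-like cells, which line vessels, had the highest Igfbp4 and Igfbp7 levels at E11.5 and E13.5. Igfbp4 stood at 865 CPM [822 to 910.4] at E13.5 and 746 CPM [698 to 796] at E11.5. Igfbp7 stood at 169 CPM [150.4 to 189.9] at E13.5 and 123 CPM [104 to 144] at E11.5, and Igfbp3 at 459 and 172 CPM. These levels rest on 81 and 56 cells. With at most 5% mitochondrial UMIs 21 (E13.5) and 28 (E11.5) of these cells were left, too few to be ranked, with 856 and 761 CPM of Igfbp4 and 115 and 19.1 CPM of Igfbp7.

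In muscle, Igfbp3 was higher and Igfbp4 lower at the later stages. The Igfbp3 difference was not limited to muscle. Of the 11 classes with at least 50 cells at E11.5 and E12.5, erythroid-like cells included, 10 had Igfbp3 2-fold higher at E12.5. Myogenic progenitor-like cells had Igfbp3 at 91.5 CPM (E11.5), 312 CPM (E12.5) and 299 CPM (E13.5), and myocyte-like cells, the differentiating muscle cells, had 163, 344 and 316 CPM. Igfbp4 stood at 147 CPM (E11.5), 109.6 CPM (E12.5) and 82.3 CPM (E13.5) in myogenic progenitor-like cells, and at 220.2, 134 and 81.3 CPM in myocyte-like cells.

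Epidermis-like cells had lower levels of most of the 9 genes at E13.5 than at E11.5. Igfbp2 stood at 2566 CPM (E11.5), 664 CPM (E12.5) and 566 CPM (E13.5), and Igfbp5 at 1227 CPM (E11.5), 1286 CPM (E12.5) and 338 CPM (E13.5). Of 8 measured genes, 6 were 2-fold lower (both receptors, Igfbp2, Igfbp3, Igfbp4 and Igfbp5), where 8.5% of 8450 genes were. The cells numbered 71, 91 and 290, and epidermal markers made up 3 of the 10 leading genes of the class at E11.5 and 6 at E13.5. The part of this difference in the levels was not tested.

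**Figure D4:**
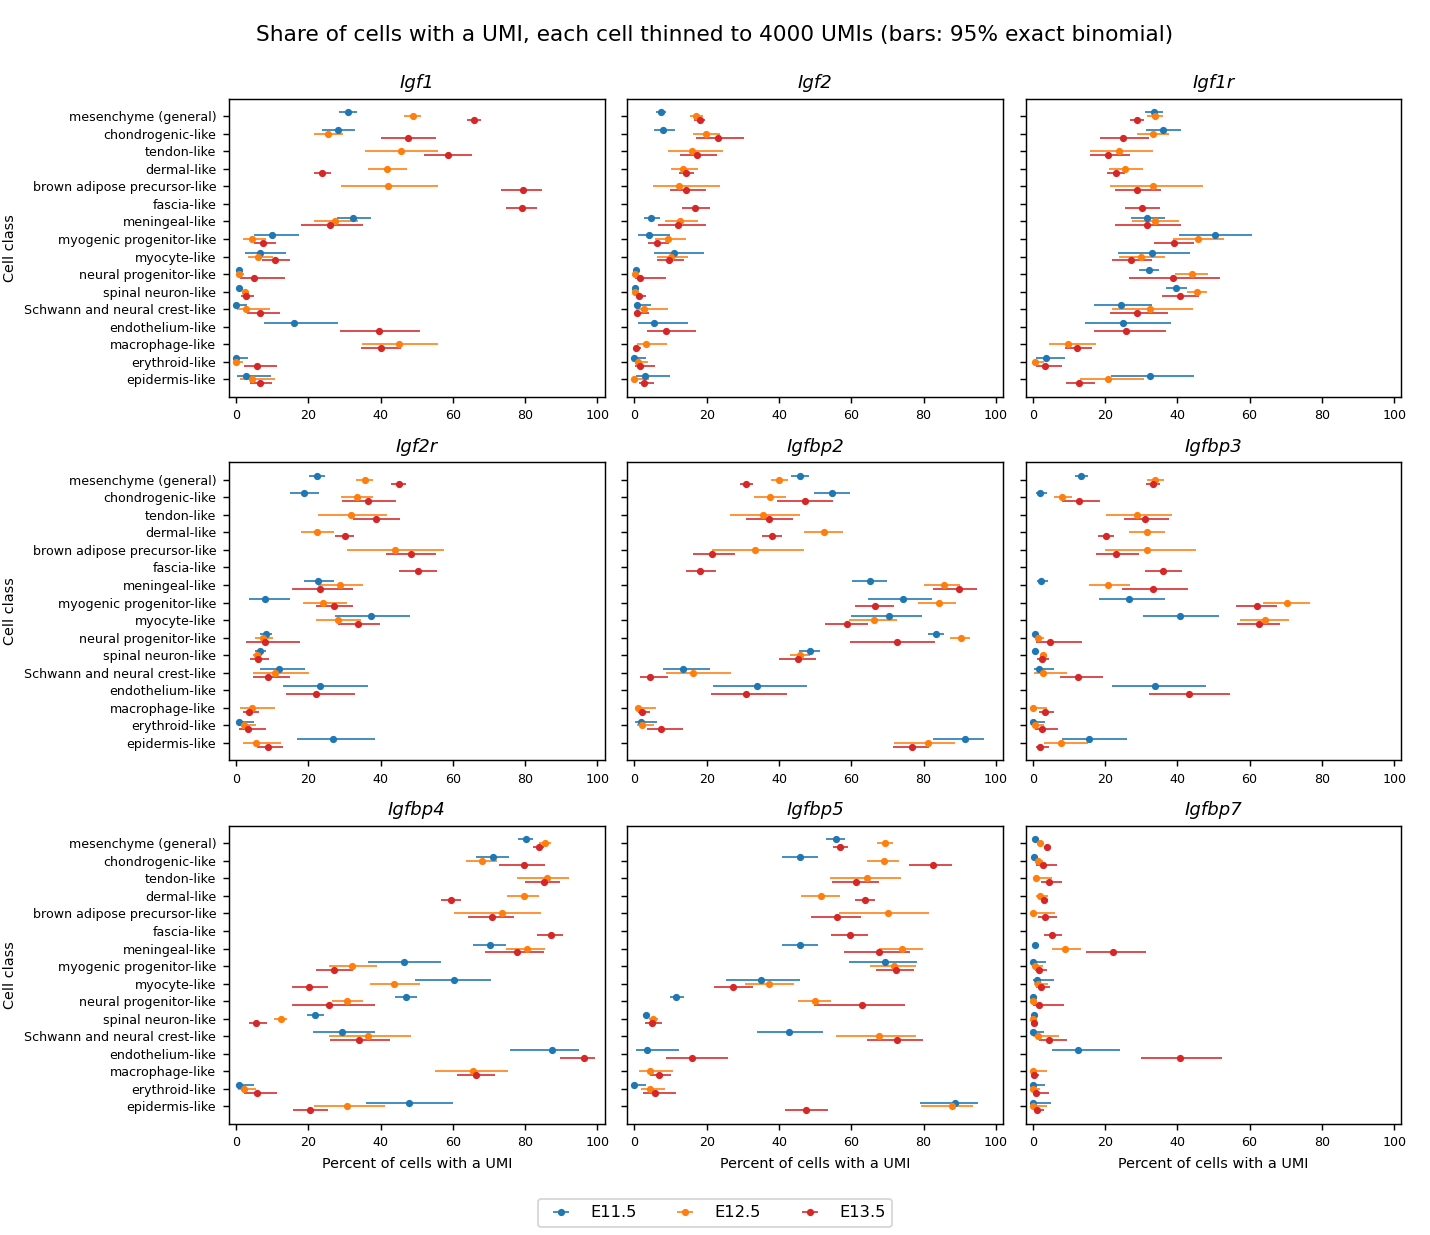
Percent of cells with a UMI of each of the 9 genes after every cell was thinned to 4000 UMIs, by cell class with at least 50 cells and by stage. Igf1 reaches 79.4% in brown adipose precursor-like cells at E13.5, where erythroid-like cells stand at 5.74%.

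The make-up of the binding protein UMIs set classes apart. Genes may differ in how well they are captured, so the shares are compared between classes. At E13.5 macrophage-like cells drew 90.7% of their UMIs of the 5 genes from Igfbp4, Schwann and neural crest-like cells 89.1% from Igfbp5, and spinal neuron-like cells 76.9% from Igfbp2. Myocyte-like cells drew 36.1% from Igfbp3 at E13.5 and 14.7% at E11.5. Neural progenitor-like cells drew 52.0% from Igfbp5 at E13.5 and 8.05% at E11.5. All mesenchyme drew 42.1% from Igfbp5 at E13.5 and 42.3% at E11.5, and from Igfbp3 10.6% and 2.82%.

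**Figure D5:**
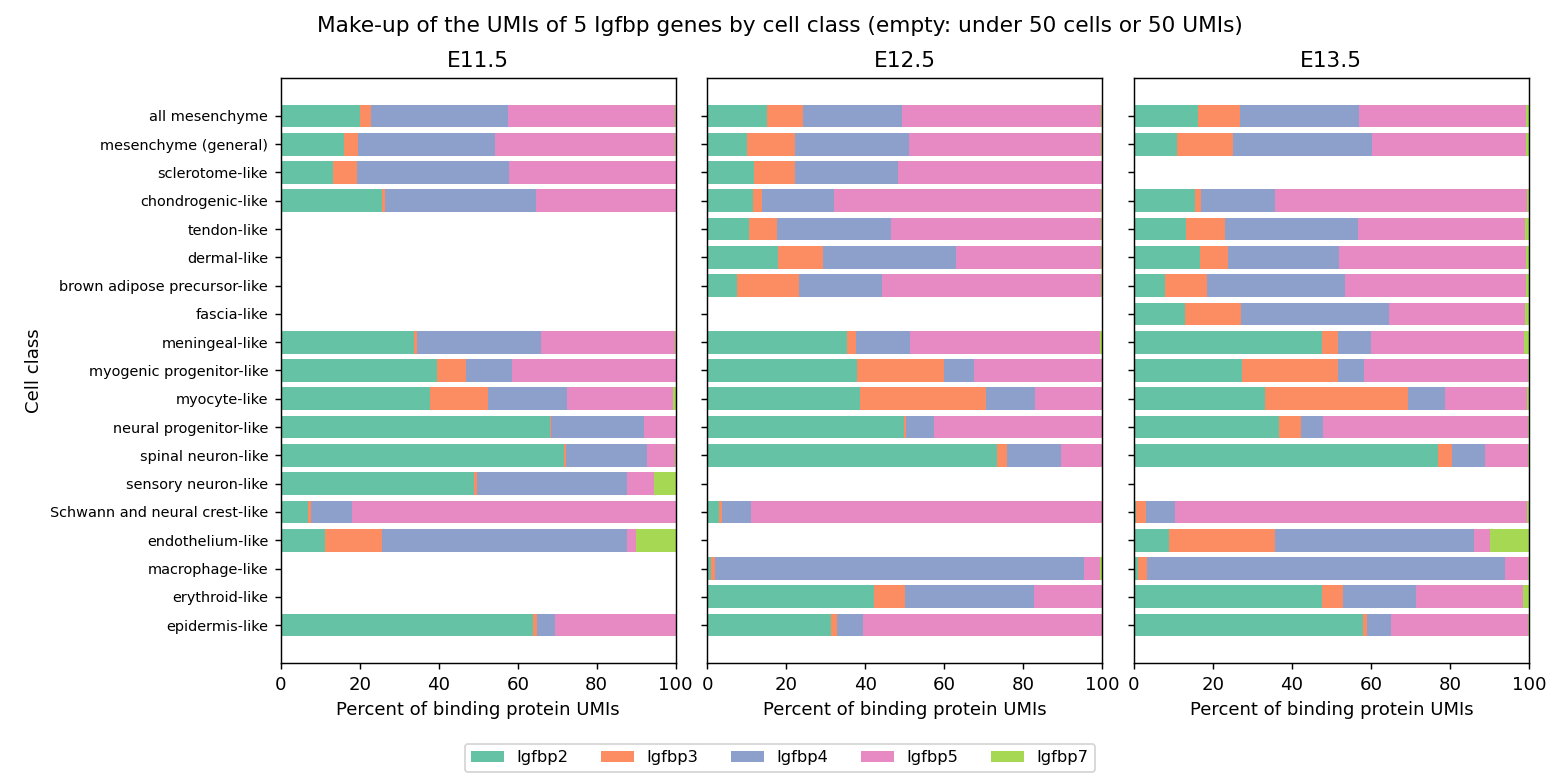
Percent of the summed UMIs of the 5 binding protein genes that each gene supplied, by cell class and stage. Igfbp4 fills most of the bar in macrophage-like cells (90.7% at E13.5), Igfbp5 in Schwann and neural crest-like cells and Igfbp2 in spinal neuron-like cells.

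Within mesenchyme, thinned cells with and without an Igf1 UMI differed in other genes. At E13.5, 47.1% [45.2 to 49.1] of the 2519 cells with an Igf1 UMI had an Igf2r UMI, against 32.6% [30.6 to 34.7] of the 2100 cells without. For Igfbp4 the shares were 84.1% and 68.3%. For Igfbp2 they ran the other way, at 27.4% [25.7 to 29.2] and 41.5% [39.4 to 43.6]. For Igf2 they were 17.0% and 16.6%, with intervals that met. At E11.5 the Igfbp2 shares were 56.6% [52.9 to 60.3] and 45.8% [43.4 to 48.2], opposite in direction to E13.5. The cells of a stage share 1 library, so these shares describe it. The mesenchymal classes were pooled for these shares and differed in both genes. At E13.5 meningeal-like cells had 231 CPM of Igf1 and the highest Igfbp2 level, 2997 CPM, while general mesenchymal cells had 639 CPM of Igf1. The part of the class mix in these shares was not tested.

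Across the 44 groups of class and stage with at least 50 cells, the genes most like each of the 9 in log2(CPM + 1) were listed by Pearson's r, as a description, since the groups share libraries and depth. Igf1 was closest to Il11ra1 (0.91), Colec12 (0.90) and Tnfsf12 (0.90). Igf2 was closest to Airn (0.94), H19 (0.93), an imprinted RNA beside Igf2, and Scarf2. Igf1r was closest to Pcnx (0.95), Matr3 and Nsd1, and Igf2r to Obsl1 (0.94), Airn and P3h4. Igfbp2 was closest to Afdn (0.81), Nxn and Zfp503, and Igfbp3 to C430049B03Rik (0.88), Itm2a and Spry4. Igfbp4 was closest to Cmtm3 (0.92), Rrbp1 and Itpr1, Igfbp5 to Sdc2 (0.90), Erbb2 and Ptgfrn, and Igfbp7 to Ecscr (0.83), Tbxa2r and Cd34. Between members, r was 0.88 for Igf2 and Igf2r and 0.12 for Igf1 and Igfbp2.

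Other genes of the pathway were read from 6 lists with 48 genes, the 9 included, in all mesenchyme at E13.5 over E11.5, where 13.1% of 14308 genes were 2-fold higher and 5.58% lower. Of the list of proteases that cut binding proteins and their inhibitors, 5 genes had at least 50 UMIs, 4 were 2-fold higher and 0 lower. The median log2 ratio was 2.95, against 0.01 for all genes. Pappa, which cuts Igfbp4, stood at 8.06 CPM (E11.5), 24.3 CPM (E12.5) and 30.5 CPM (E13.5). Htra1, a serine protease that cuts Igfbp5, stood at 6.71 CPM (E11.5), 22.6 CPM (E12.5) and 52.0 CPM (E13.5), and Adam12, which cuts Igfbp3 and Igfbp5, at 2.35 CPM (E11.5), 10.4 CPM (E12.5) and 18.4 CPM (E13.5). All were in stage order. The other gene that was higher, Pappa2 (3.35 [2.96 to 3.75]), is named after its value was seen.

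Of the ligand list, 2 of 4 measured genes were 2-fold higher (Igf1 and Igf2) and 0 lower, against 13.1% and 5.58% of all genes. H19 stood at 331 CPM (E11.5), 601 CPM (E12.5) and 523 CPM (E13.5), and Igf2os, antisense to Igf2, at 3.97 CPM (E11.5), 4.99 CPM (E12.5) and 4.74 CPM (E13.5). Of the receptor list, 1 of 3 was higher (Igf2r) and 0 lower, beside the same shares of all genes. Insr, the insulin receptor, had a log2 ratio of 0.05 [-0.13 to 0.23], and Insrr, a related receptor, had 10, 39 and 12 UMIs.

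Of the binding protein list, 3 of 7 measured genes were higher (Igfbp3, Igfbp6 and Igfbp7) and 0 lower, where 13.1% and 5.58% of all genes were. Igfbp6, which prefers IGF2, had 16, 115 and 1003 UMIs in stage order, a log2 ratio of 5.41 [4.71 to 6.23]. Igfbpl1 stood at 8.60 CPM at E13.5 and 17.1 at E11.5, with -0.99 [-1.17 to -0.81].

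Of the 17 adaptor and kinase genes, 2 were 2-fold higher and 0 lower, with a median log2 ratio of 0.19; 13.1% of all genes were higher, so the count of higher genes is near the background, and 5.58% were lower. The 2 were Irs4 (3.08 [2.23 to 4.06]) and Pik3r1 (1.11 [1.01 to 1.21]), named after their values were seen. Grb10, an adaptor that restrains the receptors, stood at 344 CPM (E11.5), 417 CPM (E12.5) and 343 CPM (E13.5). Akt1, a kinase downstream of the receptor, stood at 87.5 CPM (E11.5), 98.5 CPM (E12.5) and 108 CPM (E13.5).

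Of the 7 regulators of Igf2, 1 was higher and 2 were lower, beside 13.1% and 5.58% of all genes. Plagl1, an imprinted transcription factor known to act on the Igf2 and H19 locus, stood at 56.1 CPM (E11.5), 198 CPM (E12.5) and 600.2 CPM (E13.5), a log2 ratio of 3.42 [3.35 to 3.49]. Hmga2, a chromatin protein of growing embryonic tissue, stood at 575 CPM (E11.5), 293 CPM (E12.5) and 117 CPM (E13.5), with -2.30 [-2.34 to -2.25], and Igf2bp1, which binds Igf2 mRNA, at 149 CPM (E11.5), 90.7 CPM (E12.5) and 63.7 CPM (E13.5), with -1.23 [-1.29 to -1.16].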

How the data were processed

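Count matrices were deposited by the authors as UMI counts per gene and barcode, made with Cell Ranger 8.0.1 on GRCm39 per the submitters' processing notes; no source used here names the gene annotation release. Barcodes needed 4000 UMIs, 500 genes and a mitochondrial share of no more than 10%, which left 6313, 6140 and 7114 in stage order, from library totals of 103383215, 94155624 and 113402193 UMIs. Doublets called with Scrublet in scanpy (164, 125 and 171) were removed. Each cell was thinned to 4000 UMIs for its class. It could join a class with at least 3 UMIs from at least 2 of its markers and at least 2 times the mean marker UMIs over all cells, and took the class with the highest such ratio. A cell in no such class named at its stage joined general mesenchyme with at least 5 UMIs from at least 3 of its markers. Erythroid-like cells also needed 50% of their UMIs from erythroid markers. These limits were set after the data were seen, and the members, lists and markers were chosen with earlier results of these data known. Single cells are not replicates, so UMIs were summed per class and library into CPM with exact Poisson intervals. Ratios have exact conditional binomial intervals, shares have Clopper-Pearson intervals, and all cover counting error only. Genes with at least 50 UMIs over both libraries entered a comparison. Outside the 9 members, at most 3 genes a list with the highest CPM in any class and stage are named, and the 3 genes most like each member. 1 gene that this rule names is not reported here. Python 3.11.15, numpy 2.4.6, scipy 1.17.1, pandas 2.3.3 and scanpy 1.11.5 were used, and the calculations were tested on simulated data.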

Additional observations from a re-analysis of the deposited data

Results flagged for a closer look

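Between E13.5 and E12.5, 4 of the 9 genes had log2 ratios of opposite sign in 2 mesenchymal classes, with intervals on either side of 0. The differences between classes were not tested, since each class has 1 library a stage. Each pair included brown adipose precursor-like cells, of which 1 (E12.5) and 23 (E13.5) were left with more marker UMIs required. Igf1 had 1.40 in brown adipose precursor-like cells and -0.61 in dermal-like cells. Igfbp2 had 1.12 in chondrogenic-like cells and -0.97 in brown adipose precursor-like cells. Igfbp5 had 0.60 in chondrogenic-like and -1.31 in brown adipose precursor-like cells. Igfbp3 had 1.19 in meningeal-like and -1.55 in brown adipose precursor-like cells.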

How the results depend on the processing

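In all mesenchyme, the number of the 9 genes past 2-fold was 4 to 6 at E12.5 over E11.5 and 5 to 7 at E13.5 over E11.5 under the alternatives, against 5 and 5. At E13.5 over E12.5 it was 0 at 2-fold under each of them and 3 at a fold of 1.5. The class with the highest level was the same in 16 of 27 gene and stage pairs in cells with at most 5% mitochondrial UMIs, and in 18 to 27 under the other settings that give one. Classes left with under 50 cells are not ranked, which at 5% takes out endothelium-like and meningeal-like cells at E13.5. The sum of Igf2 and Gm49394, chosen after seeing the data, could change no ratio, because Gm49394 had 0 UMIs in mesenchymal cells at each stage. It holds none of the reads left out for fitting 2 genes, so it cannot decide whether the overlap lowered the Igf2 counts. Among Xist-positive cells that lacked Y-linked UMIs, 14 of 27 log2 ratios stayed within their counting intervals. The same weight was also given to each mesenchymal class with at least 50 cells at both stages. For E13.5 over E11.5 these were general, chondrogenic-like and meningeal-like cells. With this weight 6 of 27 ratios stayed within their intervals. The E13.5 over E11.5 ratio was 2.93 for Igfbp3 and 4.50 for Igfbp7, and the E12.5 over E11.5 ratio of Igfbp5 was 1.60. The causes were not tested. No paired analysis was possible because each stage is 1 library.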

Other observations

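Classes with fewer than 50 cells were left out of the order of levels. Mural-like cells carried genes of pericytes and vessel muscle. They had Igfbp7 at 389 CPM [333 to 451] at E12.5 (28 cells) and 208 CPM [175 to 245] at E13.5 (49 cells). Without thinning, 39.3% (E12.5) and 51.0% (E13.5) of these cells had an Igfbp7 UMI. Igfbp7 was itself among the 10 leading genes of that class at both stages. The 34 endothelium-like cells at E12.5 had 30.1 CPM [20.3 to 42.9] of Igfbp7. The 42 mesothelium-like cells at E11.5 had 2089 CPM [1992 to 2189] of Igfbp5.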
